A study of Mus musculus with 6 samples.

Results

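Alox15 and 9 further genes of eicosanoid synthesis (Alox5, Alox5ap, Alox12, Alox12b, Ptgs1, Ptgs2, Ptges, Ltc4s and Hpgds) were described in mouse epiblast stem cells that differentiated with Mixl1 induced or are labelled Mixl1 KO. They are the lipoxygenase, cyclooxygenase and eicosanoid synthase genes picked by symbol, 10 of the 55471 gene identifiers counted. The pick was made with the read counts of this same contrast in view, so the values of these 10 genes are given as a description, without p-values. In all, 15091 genes had enough reads to be tested, among them 8 of the 10. Alox12b and Ltc4s had too few.

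The 6 libraries held poly(A) RNA from embryoid bodies, which are floating aggregates of differentiating pluripotent cells, after 2 days in serum. Of these, 3 libraries came from an inducible Mixl1 line that received doxycycline at 1 µg/mL for the last 24 h (Mixl1 induced), and 3 came from cells labelled Mixl1 KO. Before aggregation both groups grew on a feeder layer of irradiated embryonic mouse fibroblasts, in medium containing 10 ng/mL bFGF plus 20 ng/mL Activin A, and the aggregates left the microwells after 24 h. The homeobox gene Mixl1 codes for a transcription factor active in the primitive streak, where mesoderm and endoderm form. The labels name neither the promoter that drives Mixl1, the part of the gene deleted, nor whether a line is 1 clone. They also do not state whether the lines share a parent or whether the KO cells received doxycycline, so effects of Mixl1, line and drug cannot be told apart.

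Eicosanoids are signalling lipids made from arachidonic acid and related fatty acids, which phospholipases release from membranes. Lipoxygenases add oxygen to them and give hydroperoxides, hydroxy acids and leukotrienes, while cyclooxygenases give prostaglandin H2, from which synthases make the prostaglandins and thromboxane. In adult mice Alox15 is best known from resident macrophages of the peritoneum and from eosinophils, and cyclooxygenase products act on neighbouring cells through G protein-coupled receptors.

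Reads on genes ranged from 17490426 to 21026423 per library. Mixl1 itself had 8860, 7720 and 7861 reads in induced libraries, against 817, 668 and 812 in KO libraries, so reads of the gene remained in cells labelled KO. The 12 epiblast stem cell markers summed to between 2756 and 2943 counts per 1000000 reads on genes (CPM, scaled between libraries) in induced libraries and to between 2757 and 2957 CPM in KO libraries. These near-equal sums hold opposite changes, as all 12 markers passed the edgeR test at an adjusted p under 0.05, 6 of them higher and 6 lower in induced cells. Sox2 (log2 fold change 1.86), Fgf5 (1.61), Tdgf1 (1.58) and Otx2 (1.34) were among the higher ones, and L1td1 (-1.89), Nanog (-1.59) and Pou5f1 (-0.68) among the lower. Replicates differed from each other by more than counting noise, with chi-square per degree of freedom of 2.25 to 4.82 among induced and 3.68 to 5.18 among KO libraries, against 79.6 to 91.3 between the groups. The labels do not say that replicates are separate cultures, so p-values measure only how these samples vary among themselves, which could be technical variation. Genes outside the set of 10 were tested with edgeR's quasi-likelihood test (two-sided, Benjamini-Hochberg adjusted over all 15091 genes, threshold 0.05). This test called 62.6% of all tested genes, 31.0% higher and 31.6% lower in induced cells. In bulk RNA, fewer cells of a type and less RNA per cell cannot be told apart.

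Alox15 (ENSMUSG00000018924.6, chr11:70344152-70352031, minus strand, GRCm38) is the lipoxygenase that oxygenates arachidonic acid near its tail, and can act on fatty acids still bound in membranes. Because several lipoxygenase genes are close relatives, a stretch of its coding sequence is shown beside that of Alox12e, its neighbour and nearest relative by sequence in the family, to show what keeps their reads apart. Both stretches are 120 bases, 5′ to 3′, from GENCODE M21 transcripts, at coding positions 644 to 763 of Alox15 and 641 to 760 of Alox12e, counted from the A of the start codon. Capitals mark the 26 bases at which they differ.
Alox15: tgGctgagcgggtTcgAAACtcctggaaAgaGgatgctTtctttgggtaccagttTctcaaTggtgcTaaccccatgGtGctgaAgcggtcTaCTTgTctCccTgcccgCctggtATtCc
Alox12e: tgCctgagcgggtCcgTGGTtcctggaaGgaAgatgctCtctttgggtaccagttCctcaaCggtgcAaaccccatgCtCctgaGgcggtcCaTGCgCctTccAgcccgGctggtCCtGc
Over 1972 aligned coding bases the transcripts were 69.3% identical, and the longest run without a difference was 16 bases. Alox15 and Alox12 were 67.8% identical with a longest run of 18 bases, and Alox15 and Alox5 59.0% identical with a longest run of 13 bases.

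Alox15 had 745, 636 and 690 reads in induced libraries, against 11667, 9920 and 11789 reads in KO libraries. On the CPM scale these were levels of 35.9, 36.3 and 37.7 in induced libraries and 569.2, 546.7 and 620.5 in KO libraries. Every KO library lay far above every induced one, and libraries within a group lay close together. The mean level was 36.6 ± 0.917 CPM in induced cells and 578.8 ± 37.9 CPM in KO cells (SD, n = 3 each), a log2 fold change of -3.98 (SE 0.057), or 15.8-fold lower in induced cells. Per kilobase of exon, Alox15 ranked 3601 from the top of 13627 tested protein-coding genes in induced cells and 145 in KO cells. It was thus among the abundant mRNAs of KO cells and still well measured in induced cells. Its fold change was the 66th lowest of those genes. The authors' deposited table gives the same log2 fold change, -3.98 (SE 0.065).

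Alox12, the platelet-type lipoxygenase (chr11:70241457-70255353, minus strand), had far fewer reads, 56, 46 and 38 in induced and 76, 59 and 85 in KO libraries. Its level was 2.70, 2.63 and 2.07 CPM in induced libraries, against 3.71, 3.25 and 4.47 CPM in KO libraries, and the groups did not overlap. The means were 2.47 ± 0.342 and 3.81 ± 0.618 CPM (SD, n = 3 each), a log2 fold change of -0.62 (SE 0.19). Alox12b (chr11:69156989-69169792, plus strand), which oxidises ceramides of the skin barrier, had 0, 0 and 2 reads in induced and 0, 0 and 1 in KO libraries. Neither group rose above 3 reads in all, so no fold change is given.

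Alox5 (chr6:116410077-116461178, minus strand), the lipoxygenase that makes leukotriene A4, had 66, 44 and 44 reads in induced libraries and 72, 60 and 55 in KO libraries. The levels, 3.18, 2.51 and 2.40 CPM in induced and 3.51, 3.31 and 2.90 CPM in KO libraries, overlapped. The log2 fold change of -0.26 (SE 0.19) was within the spread of replicates. Alox5ap (chr5:149264767-149288153, plus strand) encodes the membrane protein FLAP, which presents arachidonic acid to Alox5. It was the partner with a difference: 16, 9 and 13 reads in induced libraries, against 40, 55 and 43 in KO libraries, or 0.771, 0.514 and 0.710 CPM and 1.95, 3.03 and 2.26 CPM. The groups lay apart, and the log2 fold change was -1.83 (SE 0.28). Another gene on the opposite strand, Gm19719, overlaps Alox5ap, and without strand the Alox5ap reads dropped to 1, 3 and 3 in induced and 11, 16 and 11 in KO libraries, with a log2 fold change of -2.35. The authors' deposited table gives -2.40 (SE 0.782) for it.

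Ltc4s (chr11:50236461-50238616, minus strand), which joins leukotriene A4 to glutathione, was all but absent, with 2, 3 and 1 reads in induced libraries and 1, 0 and 0 in KO libraries. The ratio of 6.12 had a counting interval of 0.742 to 281 (exact binomial, 95%), so no difference was detectable at this depth.

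Of the cyclooxygenases, Ptgs1 is the form that most tissues express at a steady level and Ptgs2 the form that cytokines and growth factors induce. Their RNAs differed between the groups in opposite directions. Ptgs1 (chr2:36230426-36252272, plus strand) had 330, 235 and 231 reads in induced libraries, against 3096, 2755 and 2959 in KO libraries. Its level was 15.9, 13.4 and 12.6 CPM in induced and 151.0, 151.8 and 155.8 CPM in KO libraries, every KO library lying far above every induced one. The means were 13.98 ± 1.72 CPM in induced and 152.9 ± 2.53 CPM in KO cells (SD, n = 3 each), a log2 fold change of -3.44 (SE 0.068), or 10.9-fold lower in induced cells. Ptgs2 (chr1:150100031-150108227, plus strand) had 296, 210 and 214 reads in induced libraries and 108, 150 and 149 in KO libraries. Its level was 14.3, 12.0 and 11.7 CPM in induced and 5.27, 8.27 and 7.84 CPM in KO libraries, so each induced library was above each KO library. The log2 fold change of 0.84 (SE 0.14) corresponds to 1.79-fold higher in induced cells. Per kilobase of exon, the Ptgs1 level was 3.60 ± 0.442 CPM and the Ptgs2 level 2.76 ± 0.306 CPM in induced cells, against 39.4 ± 0.651 CPM for Ptgs1 and 1.56 ± 0.353 CPM for Ptgs2 in KO cells (SD, n = 3 each).

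As these genes differed in opposite directions, the 250 bases before each start are shown as RefSeq gives them for GRCm38.p6, on the plus strand, Ptgs1 at chr2:36230176-36230425 and Ptgs2 at chr1:150099781-150100030. Capitals mark the match to TAATTA, a sequence that many homeodomain proteins bind.
Ptgs1: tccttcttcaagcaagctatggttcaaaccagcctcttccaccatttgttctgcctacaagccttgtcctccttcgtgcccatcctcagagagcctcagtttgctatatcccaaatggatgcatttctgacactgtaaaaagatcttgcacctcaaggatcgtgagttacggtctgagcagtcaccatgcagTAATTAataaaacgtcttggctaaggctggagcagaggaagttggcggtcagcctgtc
Ptgs2: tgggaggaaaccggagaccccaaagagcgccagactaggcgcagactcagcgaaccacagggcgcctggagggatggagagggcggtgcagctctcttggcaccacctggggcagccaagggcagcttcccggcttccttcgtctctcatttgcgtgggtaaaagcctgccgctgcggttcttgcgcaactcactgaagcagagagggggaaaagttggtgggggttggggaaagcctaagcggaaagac
Windows of 300 bases around the start were searched on both strands for this homeodomain site, for a paired-class dimer site (TAAT and, after any 3 bases, ATTA, which can overlap the homeodomain site), for a GATA site (AGATAA) and for a STAT site (TTC and, after any 4 bases, GAA). Among 32851 promoter windows of the mouse, 5.29% held the homeodomain site, 0.487% the dimer site, 11.2% the GATA site and 6.95% the STAT site. Windows were at hand for 8 of the 10 genes. None was at hand for Alox15 or Alox5ap, so these were not searched. Ptgs1 held the homeodomain site at 58 to 53 bases before the start, Ptges held a match to the STAT site (TTCAAAAGAA), and no other match was present in the 8 windows. These are matches of letters only. The Ptges window belongs to a RefSeq start whose 250 bases upstream are chr2:30903298-30903547. That lies inside the span given for the gene below, not at its outer end.

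Ptges (chr2:30889471-30929863, minus strand) is the inducible synthase that turns prostaglandin H2 into prostaglandin E2. Its level was 24.6, 20.6 and 19.3 CPM in induced libraries, against 22.9, 24.3 and 22.5 CPM in KO libraries. The groups overlapped, and the log2 fold change of -0.11 (SE 0.087) was small beside the differences of both cyclooxygenases. Hpgds (chr6:65117293-65144908, minus strand) makes prostaglandin D2 in mast cells, macrophages and other blood cells. It had 8, 7 and 7 reads in induced libraries, against 37, 43 and 32 in KO libraries, or 0.386, 0.400 and 0.382 CPM and 1.81, 2.37 and 1.68 CPM. The groups lay apart, at a log2 fold change of -2.30 (SE 0.31), on a low level in both.

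**Figure D1:**
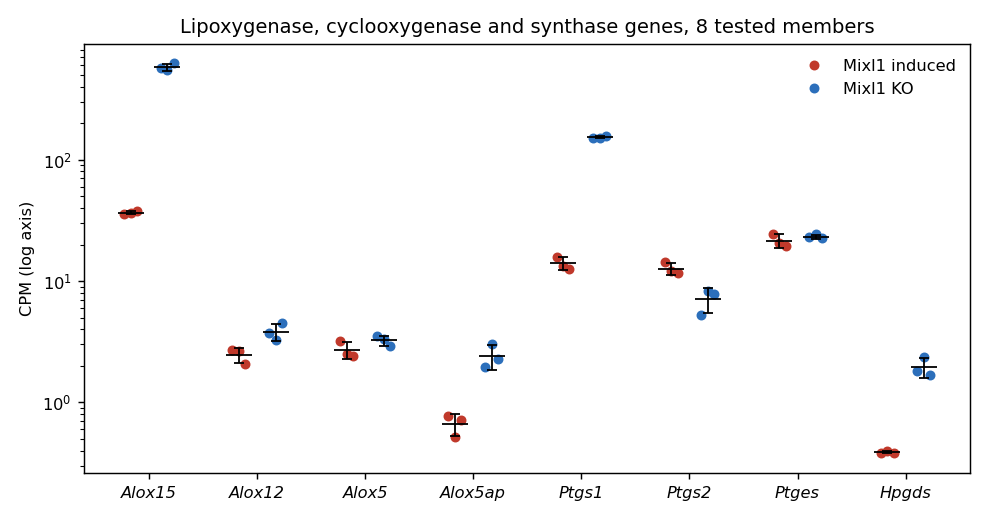
Level of the 8 genes of the set that had enough reads, in the 6 libraries (CPM, log axis), with induced libraries left of KO libraries; points are libraries and bars the mean ± SD (n = 3 each). Alox15 lies near 36.6 CPM in induced and 578.8 CPM in KO libraries, Ptgs1 shows the next widest gap, and of these 8 genes Ptgs2 is the one whose induced libraries all lie higher.

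Ranked by level per kilobase of exon, KO cells had Alox15 at 235.9 ± 15.4 CPM, Ptgs1 at 39.4 CPM, Ptges at 5.91 CPM, Alox5ap at 1.70 CPM, Ptgs2 at 1.56 CPM, Alox12 at 0.933 CPM, Alox5 at 0.789 CPM and Hpgds at 0.304 CPM. Alox5ap and Ptgs2 did not differ beyond their SDs, nor did Alox12 and Alox5. In induced cells the order was Alox15 at 14.9 ± 0.374 CPM, Ptges at 5.47 CPM, Ptgs1 at 3.60 CPM, Ptgs2 at 2.76 CPM, Alox5 at 0.657 CPM, Alox12 at 0.604 CPM, Alox5ap at 0.468 CPM and Hpgds at 0.0606 CPM. There Alox5 and Alox12, and Alox12 and Alox5ap, did not differ beyond their SDs. Alox15 was first in both groups, while Ptgs1 stood behind Ptges in induced cells and well ahead of it in KO cells. Of the 8 genes with enough reads, 5 were lower and 1 was higher in induced cells by the call rule that took 62.6% of all genes, and 6 had groups that did not overlap, against 67.1% of all genes. The genes were chosen on this contrast, so nothing is read from these counts. The median log2 fold change of the 8 was -1.23, and that of all tested genes was 0.0038.

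The neighbourhood of Alox15 was described next, since position played no part in the choice. Within 250 kb lay 23 other protein-coding genes, of which 13 outside the set were tested. Of these, 3 were higher, 3 were lower and 7 did not pass, with a median log2 fold change of -0.09. Alox12e, an epidermal lipoxygenase gene of the mouse that starts 29.4 kb away on the same strand (chr11:70315610-70322628), had 8, 8 and 11 reads in induced libraries, against 248, 198 and 238 reads in KO libraries. It fell to 0.481 ± 0.109 CPM in induced cells, against 11.8 ± 0.837 CPM in KO cells (SD, n = 3 each), a log2 fold change of -4.61 (SE 0.19, edgeR adjusted p = 4.83e-15). The groups did not come near each other. On the other side the nearest tested gene, Pelp1, a nuclear receptor coactivator that starts 58.0 kb away, had a log2 fold change of -0.05 (adjusted p = 0.297). Bcl6b, a transcriptional repressor, fell by 1.02 on the log2 scale (adjusted p = 4.44e-07) and Slc16a11, a monocarboxylate transporter family member, by 0.71 (adjusted p = 0.0311), a call lost in 5 of the alternative settings. Arrb2 (0.45), which uncouples G protein-coupled receptors, Pld2 (0.34), a phospholipase D, and Mink1 (0.29), a kinase, rose by these log2 fold changes, with adjusted p-values of 3.17e-06, 0.00186 and 0.00014. The genes that did not pass were, beside Pelp1, Med11, Cxcl16, Zmynd15, Psmb6, Slc16a13 and 0610010K14Rik, and Cxcl16 (-0.56, adjusted p = 0.0588) passed in 5 of the alternative settings. Alox15 and Alox12e thus differed by far more than any other tested gene of this stretch.

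**Figure D2:**
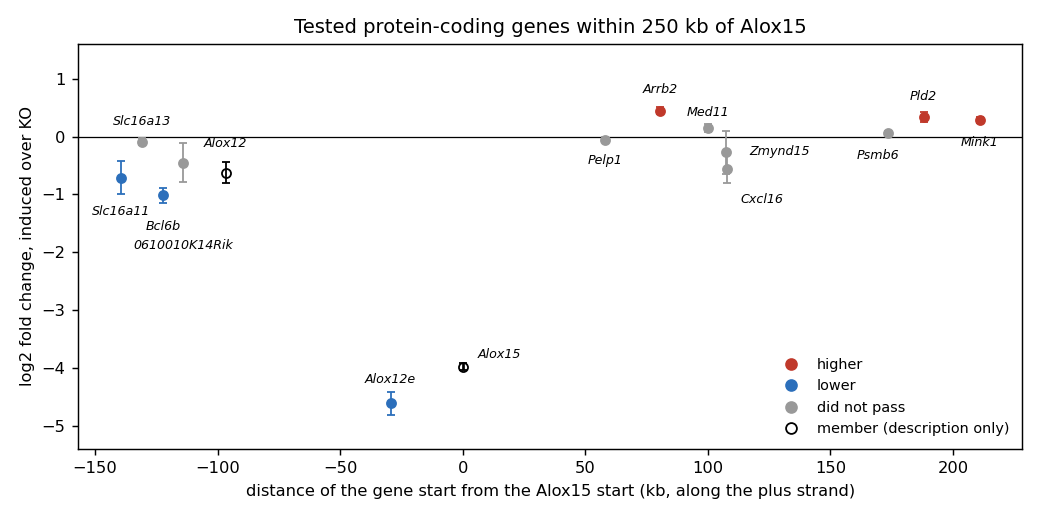
Log2 fold change (induced over KO, bars are SE) of tested protein-coding genes within 250 kb of Alox15, against the distance of their start from the Alox15 start in kb. Alox15 (-3.98) and Alox12e (-4.61) lie far below all other genes, which fall between -1.02 and 0.45; open circles are genes of the set, shown as a description.

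Macrophage markers differed in the same direction as Alox15. Of 18 macrophage markers 16 were tested, and all 16 fell in induced cells, with a median log2 fold change of -2.32. Their summed level was 62.6, 65.7 and 53.0 CPM in induced libraries, against 342.8, 493.1 and 434.9 CPM in KO libraries. Lyz2, the lysozyme of myeloid cells, was at 34.7 ± 3.65 CPM in induced and 311.2 ± 54.9 CPM in KO cells, Cd68, a lysosomal protein, at 10.5 ± 1.55 and 36.2 ± 6.81 CPM, and Adgre1, the F4/80 antigen, at 1.23 ± 0.311 and 7.80 ± 1.67 CPM (SD, n = 3 each). None of the 18 was without reads. Alox15 divided by this sum was 0.554 to 0.711 in induced and 1.11 to 1.66 in KO libraries, and Ptgs1 divided by it 0.205 to 0.254 in induced and 0.308 to 0.441 in KO libraries. Both genes therefore differed by more than the sum did. The ratio of Alox12e was 0.00616 to 0.0113 in induced and 0.0221 to 0.0353 in KO libraries. Alox5ap and Hpgds went the other way against this sum. Their ratios were 0.00783 to 0.0134 and 0.00609 to 0.00722 in induced libraries, against 0.00520 to 0.00615 and 0.00387 to 0.00527 in KO libraries. Lyz2 alone gave 35.6, 37.8 and 30.7 CPM of the induced sums and 251.6, 359.6 and 322.5 CPM of the KO sums. Its log2 fold change was -3.16, so the ratios follow Lyz2 more than the other markers. Hpgds, at -2.30, lay near the marker median. Ratios to the markers without Lyz2 were not computed. In KO replicate 2, which had the highest macrophage sum, Alox5ap and Hpgds were the highest of the KO group and Alox15 the lowest. This is an order of 3 libraries, on 40, 55 and 43 reads of Alox5ap and 37, 43 and 32 of Hpgds. Nothing is read from it. The part of macrophage RNA in the differences of these genes was not tested.

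**Figure D3:**
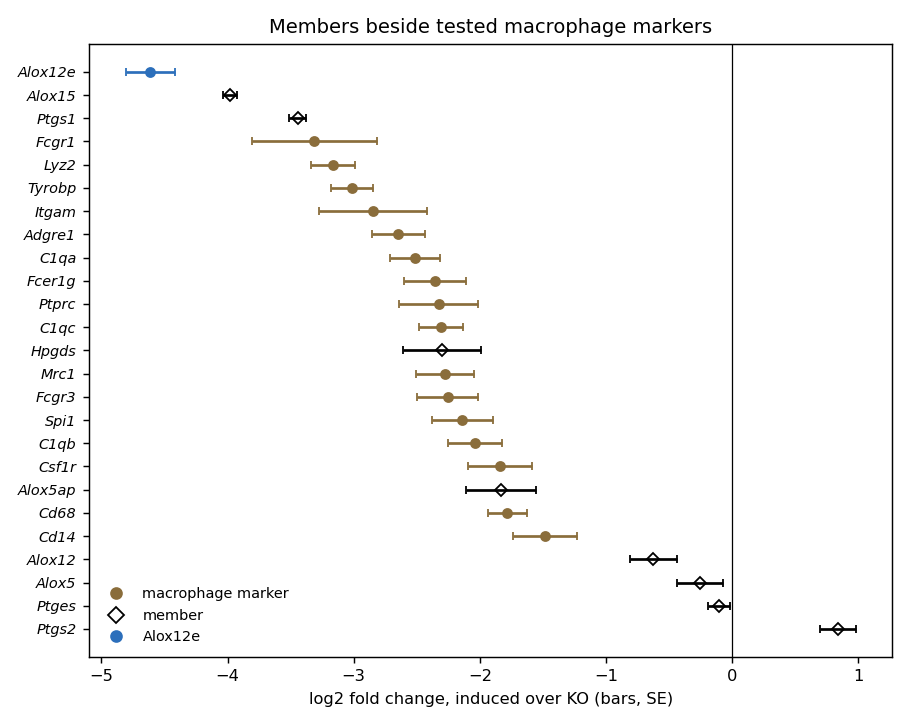
Log2 fold change (induced over KO, bars are SE) of the 16 tested macrophage markers (brown circles), of 8 genes of the set (open diamonds, a description only) and of Alox12e (blue), sorted by value. Alox12e (-4.61), Alox15 (-3.98) and Ptgs1 (-3.44) lie beyond every marker by value, though Ptgs1 lies within the SE bar of Fcgr1 (-3.31, SE 0.50). Hpgds (-2.30) and Alox5ap (-1.83) lie among the markers, and Alox12, Alox5, Ptges and Ptgs2 lie to their right.

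Mast cells, eosinophils and platelets, which are also known for eicosanoid synthesis, left little signal. Of 13 mast cell and eosinophil markers none had enough reads to be tested and 6, among them Cpa3, Fcer1a and Prg2, had no read at all. Their sum was 0.400 to 0.530 CPM in induced and 0.882 to 1.05 CPM in KO libraries. The 9 platelet and megakaryocyte markers summed to 1.77 to 2.22 CPM in induced and 2.63 to 4.13 CPM in KO libraries, with no read of Ppbp, Gp9 or Gp1bb. Of these, 2 were tested and Pf4 fell (log2 fold change -2.47, adjusted p = 3.79e-06). For the feeder layer, 13 fibroblast markers summed to 501.8 to 688.7 CPM in induced and 682.5 to 869.3 CPM in KO libraries, ranges that overlap narrowly. Of 12 tested, 3 were higher, 6 were lower and 3 did not pass. Collagens weighed most in these sums and hold opposite changes, with Col1a1 lower (log2 fold change -0.74) and Col1a2 higher (1.09). Dcn (-2.64), Pdgfrb (-2.27) and Twist2 (-1.42) fell further, while Thy1 (0.93) and Lum (0.70) rose. The 10 squamous epithelium markers summed to 8.46 to 8.80 CPM in induced and 10.4 to 12.7 CPM in KO libraries, and of 3 tested Krt5 fell (log2 fold change -3.22). Endothelial markers summed to 23.0 to 28.3 CPM in induced and 20.1 to 22.5 CPM in KO libraries, with 4 of 8 tested higher and 2 lower.

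The rest of the pathway was read from lists of 138 genes, of which 134 were counted and 88 tested. In induced cells 29 rose and 38 fell, 67 in all, and 21 did not pass, beside the 62.6% called among all tested genes. The median log2 fold change was -0.09, beside 0.0038 over all genes. Of the further lipoxygenases Alox12e was the one tested. Alox8 had 3, 2 and 3 reads in induced and 1, 3 and 1 in KO libraries, and Aloxe3 had 4, 3 and 4 in induced and 0, 4 and 1 in KO libraries.

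In the list for the first step, release of arachidonic acid, 4 of 11 tested genes rose, 4 fell and 3 did not pass. Not every listed gene encodes an enzyme of this step, Plaa and Pla2g7 among them. Pla2g4a, the cytosolic phospholipase that prefers arachidonic acid, stood at 3.43 CPM in induced and 3.61 CPM in KO cells (log2 fold change -0.07, adjusted p = 0.766), and the calcium-independent Pla2g6 at 60.1 and 63.1 CPM (-0.07, adjusted p = 0.299). Pla2g4c, a relative of Pla2g4a, fell to 7.73 ± 0.756 CPM in induced cells, against 20.3 ± 1.78 CPM in KO cells (log2 fold change -1.39, adjusted p = 1.23e-10). The scarce Pla2g4b (1.56, adjusted p = 0.00269) rose, while Pla2g4e (-1.27, adjusted p = 0.00397) and the secreted Pla2g3 (-1.15, adjusted p = 0.00979, lost with DESeq2 at 0.064) fell. Pla2g12a (0.72), Pla2g15 (0.61) and Pla2g7 (0.31) rose and Pnpla8 (-0.21, lost in 3 of the alternative settings) fell by smaller log2 fold changes. In the supply of polyunsaturated fatty acids 8 of 15 tested genes rose, 3 fell and 4 did not pass, with a median of 0.29. Acsl1, which activates long-chain fatty acids, rose to 32.2 ± 2.37 CPM in induced cells, against 10.4 ± 1.24 CPM in KO cells (log2 fold change 1.63, adjusted p = 9.16e-13). The desaturases Fads1 (0.55) and Fads2 (0.40), the elongase Elovl5 (0.29), the arachidonate-preferring Acsl4 (0.42) and the acyltransferase Lpcat3 (0.35) rose as well, and the fatty acid carrier Fabp5 (-0.61) fell.

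Among the other prostanoid synthases 6 of 13 tested rose, 6 fell and 1 did not pass. Ptgis, the prostacyclin synthase, rose to 26.1 ± 2.98 CPM in induced cells, against 12.3 ± 0.517 CPM in KO cells (log2 fold change 1.08, adjusted p = 1.12e-09). Tbxas1, the thromboxane synthase found in platelets and macrophages, fell, with 4, 3 and 5 reads in induced libraries and 27, 34 and 17 in KO libraries (log2 fold change -2.64, adjusted p = 9.25e-06). The sources of prostaglandin E2 other than Ptges parted, with Ptges2 at 10.4 ± 1.20 CPM in induced and 23.5 ± 1.68 CPM in KO cells (-1.18, adjusted p = 5.10e-10) and the cochaperone Ptges3 at a log2 fold change of 0.12 (adjusted p = 0.0491, lost in 8 of the alternative settings). Akr1b3, an aldose reductase that can also make prostaglandin F2α, rose to 406.8 ± 12.4 CPM in induced cells, against 139.8 ± 1.58 CPM in KO cells (1.54, adjusted p = 6.32e-18). Akr1c18 (-1.03, adjusted p = 0.000132) and Cbr2 (-2.81, adjusted p = 7.82e-05), reductases of carbonyl compounds, fell. Cbr2 had 2, 1 and 3 reads in induced and 12, 20 and 13 in KO libraries. Smaller differences were those of Ptgds, a prostaglandin D synthase (0.60), Akr1b10 (0.41) and Akr1b8 (0.33), which rose, and of Cbr1 (-0.32) and Cbr3 (-0.46, adjusted p = 0.0263, lost in 6 of the alternative settings), which fell. Reads that map to more than 1 place were left out of the counts, so levels of close relatives such as the Akr1b and Cyp4f genes are uncertain.

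Leukotriene processing had 3 of 4 tested genes lower and none higher. Lta4h, which makes leukotriene B4, was at 91.6 ± 3.45 CPM in induced and 110.8 ± 1.10 CPM in KO cells (-0.27, adjusted p = 3.53e-05). Mgst1, a microsomal glutathione transferase (-0.99, adjusted p = 5.68e-06), and Ggt1, which trims glutathione conjugates (-0.59, adjusted p = 0.00138), fell too. Of the genes for breakdown and export 3 of 10 tested rose, 4 fell and 3 did not pass. Abcc1, which exports leukotriene C4, fell to 66.0 ± 3.67 CPM in induced cells, against 238.0 ± 10.6 CPM in KO cells (-1.85, adjusted p = 3.94e-18), and the prostaglandin exporter Abcc4 rose (0.58, adjusted p = 2.09e-06). The prostaglandin uptake carrier Slco2a1 fell (-0.90, adjusted p = 0.00144). The fatty acid hydroxylases of the Cyp4f group split, with Cyp4f15 (1.38) and Cyp4f16 (0.56) higher and Cyp4f17 (-1.29) lower. Hpgd, which starts the breakdown of prostaglandins, had 1, 5 and 2 reads in induced and 5, 8 and 8 in KO libraries and was not tested.

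**Figure D4:**
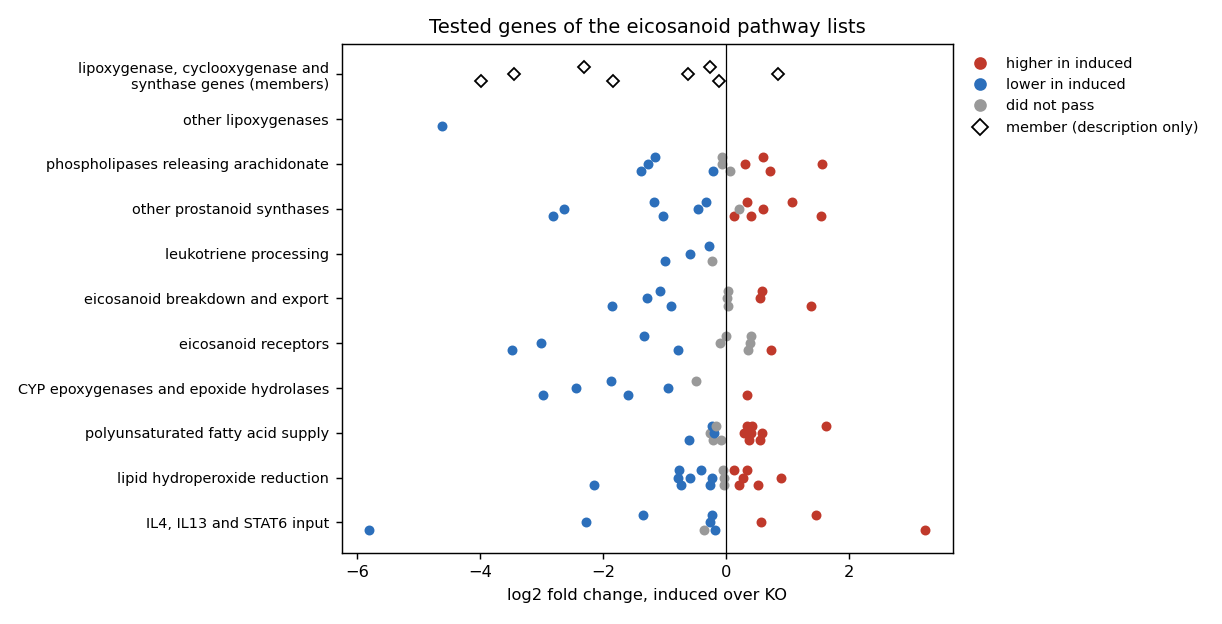
Log2 fold change (induced over KO) of each tested gene in the pathway lists, 1 row per list; red genes were higher in induced cells, blue lower and grey did not pass, and open diamonds are the genes of the set, shown as a description. Most lists spread to both sides of 0, while epoxygenases and hydrolases have 5 of 7 genes lower and fatty acid supply has 8 of 15 higher.

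In the list of eicosanoid receptors 1 of 10 tested genes rose, 4 fell and 5 did not pass. The list also holds Ptgfrn, which is not itself such a receptor. The receptors of prostaglandin E2 were unequal. Ptger3, which lowers cyclic AMP, had 23, 16 and 15 reads in induced libraries, against 205, 176 and 238 in KO libraries. It fell to 0.947 ± 0.148 CPM in induced cells, against 10.7 ± 1.55 CPM in KO cells (log2 fold change -3.48, SE 0.18, adjusted p = 2.91e-13). Ptger4, which raises cyclic AMP, had 59, 50 and 46 reads in induced and 414, 385 and 476 in KO libraries, a log2 fold change of -3.01 (SE 0.13, adjusted p = 4.48e-15). Every KO library lay above every induced library for both receptors. The calcium-coupled Ptger1 fell to 0.386 ± 0.0457 CPM in induced cells, against 0.994 ± 0.320 CPM in KO cells (-1.33, adjusted p = 0.0034), and Ptger2, which also raises cyclic AMP, stood at 0.981 CPM in induced and 0.734 CPM in KO cells (0.41, adjusted p = 0.253). For leukotrienes, Cysltr1, a receptor of cysteinyl leukotrienes, fell (-0.77, adjusted p = 0.000845) and Ltb4r2, a low-affinity receptor of leukotriene B4, rose (0.73, adjusted p = 0.00133). The thromboxane receptor Tbxa2r did not pass (0.39, adjusted p = 0.223), but did at 0.80 (adjusted p = 0.0186) without KO replicate 2. Cysltr2, Oxgr1, Gpr31b and Fpr2 had no reads.

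**Figure D5:**
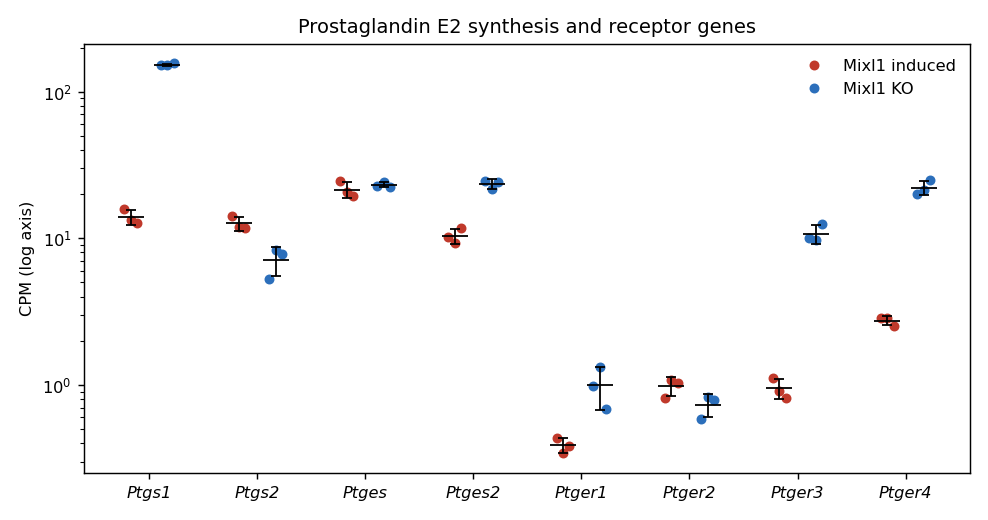
Levels of genes of prostaglandin E2 synthesis and reception in the 6 libraries (CPM, log axis), induced libraries left of KO libraries, bars showing mean ± SD (n = 3 each). Ptgs1, Ptges2, Ptger1, Ptger3 and Ptger4 lie lower in every induced library, Ptgs2 lies higher, and Ptges and Ptger2 overlap.

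The third branch of the pathway, in which cytochrome P450 enzymes make epoxides, had 5 of 7 tested genes lower, 1 higher and 1 not passing, with a median log2 fold change of -1.59. Ephx2, the soluble epoxide hydrolase, fell to 3.11 ± 0.630 CPM in induced cells, against 24.5 ± 2.62 CPM in KO cells (-2.98, adjusted p = 1.13e-14). Cyp1b1 (-2.44, adjusted p = 4.24e-14), Cyp1a1 (-1.87, adjusted p = 8.90e-10) and Cyp2s1 (-1.59, adjusted p = 1.86e-12), which oxidise many substrates beside fatty acids, and the microsomal hydrolase Ephx1 (-0.94, adjusted p = 4.66e-05) fell. Cyp2j6 rose by 0.34 on the log2 scale (adjusted p = 0.0189), a call lost in 4 of the alternative settings. The classical epoxygenases of the Cyp2c and Cyp2j groups were otherwise too low to test. Hydroperoxides made by lipoxygenases are reduced largely by peroxidases that draw on glutathione, and of 17 tested genes of this step 6 rose, 8 fell and 3 did not pass. Gpx4, which reduces hydroperoxides inside membranes, fell to 219.0 ± 3.19 CPM in induced cells, against 364.3 ± 17.9 CPM in KO cells (-0.73, adjusted p = 5.47e-12). Slc7a11, the cystine importer that feeds glutathione synthesis, fell too (-2.15, adjusted p = 4.54e-10, but -0.47, adjusted p = 3.60e-06, in unstranded counts), as did Prdx6 (-0.77), Gclm (-0.58) and Gsr (-0.40), while the peroxidases Prdx4 (0.90) and Gpx3 (0.51) rose.

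In macrophages and airway cells interleukins 4 and 13 raise Alox15 through Stat6, and the genes of this input were read beside it. Of 10 tested 3 rose, 6 fell and 1 did not pass. Il4ra, the shared receptor chain, rose to 45.4 ± 3.06 CPM in induced cells, against 16.4 ± 3.33 CPM in KO cells (1.47, adjusted p = 5.06e-08), and Stat6 rose to 55.9 ± 1.34 CPM, against 37.6 ± 3.23 CPM (0.57, adjusted p = 6.96e-08). Both differed in the opposite direction to Alox15. Whether this input acts on Alox15 in these cells was not tested. Pparg, a nuclear receptor for oxidised fatty acids, rose to 3.31 ± 0.296 CPM in induced cells, against 0.349 ± 0.0891 CPM in KO cells (3.23, adjusted p = 1.19e-09). Arg1, an arginase that Stat6 induces in macrophages, fell to 1.17 ± 0.178 CPM in induced cells, against 65.4 ± 9.86 CPM in KO cells (-5.80, adjusted p = 5.29e-15). The kinase Jak3 (-1.34, adjusted p = 1.40e-11) and Mrc1, the mannose receptor that is also in the macrophage list (-2.28, adjusted p = 1.64e-08), fell, and Jak1 (-0.27), Tyk2 (-0.23) and Jak2 (-0.17, lost in 5 of the alternative settings) fell less. The interleukins themselves had 1, 5 and 1 reads (Il4) and 2, 1 and 2 reads (Il13) in induced libraries, against 0 reads of Il4 in all KO libraries and 0, 1 and 0 of Il13. Retnla and Chil3, further Stat6 targets of mouse macrophages, had no read in any library.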

How the data were processed

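Poly(A) RNA of 6 libraries, 3 Mixl1 induced and 3 Mixl1 KO, was read from the counts the authors deposited, raw reads per gene with unstranded, sense and antisense columns. The submitters' processing notes name the mm10 build and the tools STAR, bcl2fastq and DESeq2. Their versions and the annotation release are not given. The antisense column was used, as it held 96.2% to 96.3% of stranded gene reads. Rows naming no gene (15.1% to 17.6% of reads) were left out. Multimapped reads (6.79% to 6.97% in induced, 7.43% to 7.66% in KO libraries) are part of that share. The authors also deposited a comparison table whose columns are, per the file headers, the mean normalised count (a signal), log2 fold changes with standard errors, a Wald score, p-values and a −log10 of the adjusted p. No deposited sample column was left unmapped.

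Identifiers were matched to GENCODE mouse release 21 (M21, GRCm38), 55230 of 55471, and the unmatched ones held 0.0011% of gene reads. After filterByExpr and TMM scaling, counts entered edgeR 4.0.16 (R 4.3.3) in a robust quasi-likelihood fit with group as its only term. CPM used TMM-scaled library sizes, and a standard error was the log2 fold change over the square root of F. The median standard error was 0.0837. The fit was tried on simulated data in which few genes changed, equally often up and down. That does not check the scaling or the calls where most genes change, as here. Intervals and floors (3 reads) cover counting error only.

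The genes of the set and all lists were chosen with earlier results of these data known. From each list, genes past the threshold with an absolute log2 fold change of at least 1 and up to 6 others with the smallest p were named. Some genes that meet this rule are not reported here. Of the listed symbols 4 newer ones are not in the annotation, 3 of them listed under older names too. Alternatives were DESeq2 1.42.0 and limma-voom (limma 3.58.1), other size factors and filters, unstranded counts, an adjusted p of 0.01, the replicate number as a block, and leaving out each library.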

Additional observations from a re-analysis of the deposited data

Results flagged for a closer look

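Ltc4s had reads on the strand column that was not used for the levels, 2, 5 and 5 (12 in all) in induced libraries and 1, 1 and 0 (2 in all) in KO libraries. Genes of the set were flagged where, on this column, every induced library lay above every KO library, with over 3 induced reads. The separation is thus the rule itself, and nothing is read from it. Differences in the other direction were not looked for. The antisense gene Gm26542 overlaps Ltc4s there. The difference was not tested.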

How the results depend on the processing

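Genes past the threshold numbered 9450, and between 7945 (adjusted p of 0.01) and 9932 (no filter on low counts) over 15 alternatives, with 8624 by DESeq2 and 8863 to 9225 with 1 library left out. Pathway genes past it numbered 67, with a range of 60 to 71, and genes near Alox15 6, with a range of 5 to 7. Same-numbered libraries deviated from their group means with correlations of -0.0026, 0.0463 and 0.0398. Differently numbered ones had correlations of -0.103 to 0.064. No pairing by replicate number was visible, but these values cannot settle whether samples share a culture, and the labels do not say. With the replicate number as a block 9647 genes passed, 9413 of them also without it. Among the 110 genes outside the set that were followed, none that passed in either of the fits compared turned its direction. The signs of 8 genes that did not pass, all with log2 fold changes near 0 (Pla2g4a, Plaa, Ptgr1, Ptgr2, Cyp4f13, Ptgir, Gpx8 and Gss), turned under some alternatives. Slc7a11 moved from -2.15 to -0.47 in unstranded counts. Of 1640 values for single genes outside the set, 37 lost and 19 gained the call, in 16 genes. Log2 fold changes ranged from -4.02 to -3.93 for Alox15, -3.55 to -3.38 for Ptgs1, -2.40 to -2.15 for Hpgds, -2.35 to -1.64 for Alox5ap, -0.72 to -0.50 for Alox12, 0.65 to 0.96 for Ptgs2, -0.22 to -0.04 for Ptges and -0.40 to -0.18 for Alox5. Of 112 such values 111 stayed within the replicate spread, and Alox5ap without strand (-2.35) moved beyond it; there an overlapping antisense gene makes reads ambiguous. Depth limits Alox12b and Ltc4s, which had too few reads for a test.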

Other observations

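Genes whose levels moved over the 6 libraries most like those of Alox15 were sought among 13294 tested protein-coding genes, by the root mean square difference of log2 CPM centred on each gene's mean. The nearest was Dscam (0.0892), at 1.40 ± 0.159 CPM in induced and 24.7 ± 1.92 CPM in KO cells (SD, n = 3 each). Dgkk followed (0.0908), at 7.40 ± 0.619 CPM in induced and 110.1 ± 6.22 CPM in KO cells. Then came Ehbp1l1 (0.111), Igfbp3 (0.116) and Scn9a (0.121). Of these Igfbp3 was the most abundant, at 79.3 ± 8.08 CPM in induced and 1180 ± 30.8 CPM in KO cells. With 2 groups of 3 libraries, likeness rests mostly on the size of the difference between the groups.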
